A study of Mus musculus with 14 samples.

Results

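The 10 Wnt feedback genes Axin2, Nkd1, Nkd2, Sp5, Notum, Rnf43, Znrf3, Tcf7, Lef1 and Lgr5 were followed through 14 libraries of mouse liver tumours. They were chosen by symbol as direct β-catenin feedback targets plus Lgr5, and all 10 of the 10 were found among the 77981 genes of the deposited count table. Of these libraries 4 were labelled CDK16KO CDK18KO, the double knockout (DKO), 5 were labelled CDK18KO and 5 wild type (WT). In all of them the tumours had been induced with mouse c-Myc and β-catenin plasmids delivered by hydrodynamic injection, so the Wnt effector itself was supplied to every tumour. The protocol, which is the same text for every library, describes floxed Cdk16 (Cdk16 fl/fl) deleted in established tumours through Cre-ERT2, a tamoxifen-activated recombinase, with tamoxifen at 75 mg/kg on 5 days and collection 10 days later, and Cre-ERT2 controls given the same drug. It does not say which libraries had Cre or tamoxifen, so loss of Cdk16, Cre and tamoxifen cannot be told apart in DKO. Tumours were taken at 15 mm, at signs of distress or at 8 weeks. Strain, sex and age, the promoter that drives Cre, and whether 1 animal gave 1 library are not given in the sources used here. The p-values set a group difference against the spread between these libraries, each taken as independent.

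In Wnt signalling, a secreted ligand at Frizzled and Lrp receptors stops a destruction complex from marking β-catenin for breakdown, and β-catenin then enters the nucleus and activates genes through DNA-binding factors of the Tcf and Lef family. Several of the activated genes encode brakes on the same pathway, which makes their messenger RNA a common readout of its activity. In liver the pathway is known for setting the gene programme of hepatocytes around the central vein, and mutations that stabilise β-catenin occur in hepatocellular carcinoma. CDK16 and CDK18, whose loss was studied here, are related kinases of the PCTAIRE group.

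RefSeq promoter windows (GRCm38.p6, 250 bases before to 50 after a gene's start) were found for 7 of the 10 members, and not for Notum, Znrf3 and Lgr5. Tcf and Lef factors bind a motif whose core was searched as CTTTGAT and CTTTGTT on both strands. Of the 7 members, 1 held a match in any of its windows, which is 14.3%, against 10.6% of the 27025 genes with a window. That gene was Sp5, with AACAAAG at position -222 and CTTTGAT at position -104 from the start site. A match is a run of letters, and no match says only that these letters are missing from this window. The windows of Sp5 (the gene with the matches), of Axin2 (the usual Wnt reporter gene) and of Nkd2 (the member that differed most) are shown in the direction of transcription, with the matches in capitals. They lie at chr2:70474673-70474972 (+), chr11:108920099-108920398 (+) and chr13:73847582-73847881 (-).
Sp5: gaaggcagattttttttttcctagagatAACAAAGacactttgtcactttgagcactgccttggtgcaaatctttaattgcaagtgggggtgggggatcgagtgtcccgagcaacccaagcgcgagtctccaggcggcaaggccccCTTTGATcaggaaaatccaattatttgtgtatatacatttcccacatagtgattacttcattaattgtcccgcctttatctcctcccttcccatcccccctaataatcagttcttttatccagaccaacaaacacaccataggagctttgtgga
Axin2: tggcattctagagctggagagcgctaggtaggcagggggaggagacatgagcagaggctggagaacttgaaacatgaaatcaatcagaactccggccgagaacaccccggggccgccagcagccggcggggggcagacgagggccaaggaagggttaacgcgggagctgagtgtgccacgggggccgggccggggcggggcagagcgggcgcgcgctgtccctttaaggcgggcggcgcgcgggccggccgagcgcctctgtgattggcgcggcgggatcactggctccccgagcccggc
Nkd2: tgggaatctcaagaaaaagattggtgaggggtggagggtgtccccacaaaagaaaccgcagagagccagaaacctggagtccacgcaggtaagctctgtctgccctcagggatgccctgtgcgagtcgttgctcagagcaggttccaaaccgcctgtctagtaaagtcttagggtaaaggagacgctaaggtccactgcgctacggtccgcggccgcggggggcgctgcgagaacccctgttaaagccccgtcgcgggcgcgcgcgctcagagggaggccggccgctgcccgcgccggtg

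Messenger RNA was counted at its 3′ ends, and values are given as CPM, counts scaled to library size with TMM factors. Total counts ran from 1442417 to 6068209 per library. On the first principal component of all tested genes, with 48.8% of the variance, 6 knockout libraries (DKO 1, DKO 2, DKO 4, CDK18KO 2, CDK18KO 4 and CDK18KO 5) lay on one side and the other 8 (DKO 3, CDK18KO 1, CDK18KO 3 and all of WT) on the other side of the largest gap. Summed CPM of 12 hepatocyte markers was 1287 to 18535 in DKO, 1043 to 10103 in CDK18KO and 130 to 3491 in WT, with 0 to 1 markers at 0 in a library. Hepatocyte transcripts were thus detected in every library, but their sums were only 130, 229 and 330 CPM in WT 1, WT 3 and WT 4. Y-linked genes summed to 0.647 to 2.78 CPM in DKO, 0.311 to 348 CPM in CDK18KO and 3.85 to 788 CPM in WT, and exceeded 100 CPM in CDK18KO 1, WT 3 and WT 5. Cdk18 had 0.563 to 4.00 CPM in DKO, 0.927 to 3.42 CPM in CDK18KO and 1.26 to 10.4 CPM in WT, and Cdk16 had 17.8 to 48.5 CPM in DKO, 31.0 to 65.8 CPM in CDK18KO and 40.0 to 59.2 CPM in WT. These levels check no label, because the sources used here do not say whether the deletions take away the counted 3′ ends. In bulk tumours, fewer cells that make a transcript and less of it per cell cannot be told apart.

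**Figure D1:**
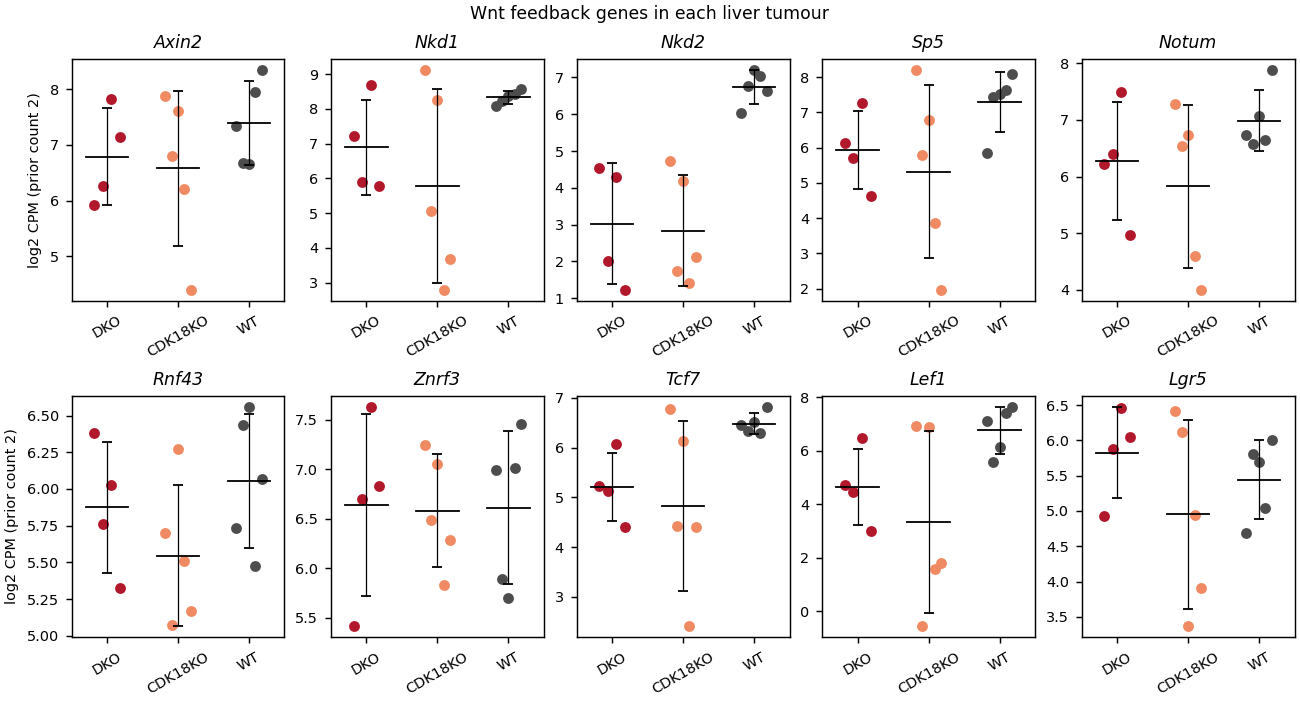
Expression of the 10 Wnt feedback genes, as log2 CPM with a prior count of 2 (y axis, a separate range in each panel), in DKO (n = 4), CDK18KO (n = 5) and WT (n = 5). Points are libraries, lines are means and bars are SD; the Nkd2 points of both knockout groups lie below all WT points, while the knockout points of Nkd1 and Lef1 spread from the WT level to far below it.

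Of the 10 members, Nkd2 had the largest log2 fold change against WT in either knockout group. Nkd2, a Naked cuticle gene, encodes a protein that binds Dishevelled, the adaptor between the receptors and the destruction complex, and lies at chr13:73818534-73847631 (GRCm38, minus strand). Nkd2 had 22.6, 3.38, 19.1 and 1.67 CPM in DKO 1 to 4, 26.1, 2.66, 17.4, 1.98 and 3.71 CPM in CDK18KO 1 to 5, and 64.5, 109, 146, 131 and 98.0 CPM in WT 1 to 5. Every library of either knockout group was below the lowest WT library, while DKO and CDK18KO overlapped. The lowest knockout values rest on few reads: Nkd2 had 3 to 79 counts per library in DKO and 5 to 84 in CDK18KO, against 127 to 794 in WT.

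Nkd2 averaged 11.7 ± 10.7 CPM in DKO (SD, n = 4) and 109.9 ± 31.6 CPM in WT (n = 5), which edgeR fitted as 9.15-fold lower in DKO (log2 fold change -3.19, SE 0.85, adjusted p = 0.146, unadjusted p = 0.00196). In CDK18KO it averaged 10.4 ± 10.8 CPM (n = 5), fitted as 10.4-fold lower than in WT (log2 fold change -3.38, SE 0.78, edgeR adjusted p = 0.148, unadjusted p = 0.000653). Neither difference passed the threshold of 0.05 after Benjamini-Hochberg adjustment over the 13997 genes tested. DESeq2 on the same counts called Nkd2 in both comparisons, with an adjusted p of 0.0057 for DKO and 0.00101 for CDK18KO. In edgeR Nkd2 was also called for CDK18KO when CDK18KO 1, the knockout library with the most Nkd2, was left out (16.6-fold lower, adjusted p = 0.0477). The adjusted p over all alternatives ran from 0.0057 to 0.464 for DKO and from 0.00101 to 0.391 for CDK18KO, with Nkd2 lower in every one of them. Between DKO and CDK18KO the log2 difference was 0.18 (SE 0.77, edgeR adjusted p = 0.998, 95% interval -1.33 to 1.70).

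Groups that do not overlap, with the knockout lower, were found for 2 of the 10 members in DKO against WT (Nkd2 and Tcf7), where 2.46% of all tested genes behaved so, and for 1 of the 10 in CDK18KO against WT (Nkd2), where 1.6% did. The 7 other tested genes within 200000 bases of Nkd2 were looked up after the Nkd2 values were seen. Of these, Slc12a7, a potassium-chloride cotransporter gene next to Nkd2, stood higher than WT by a log2 fold change of 1.20 in DKO (SE 0.32, edgeR adjusted p = 0.146), and CDK18KO differed by 1.20 (SE 0.31, adjusted p = 0.162). The remaining 6 differed by -0.88 to 1.62 in DKO and -0.29 to 0.77 in CDK18KO, with the lowest edgeR adjusted p at 0.178 in DKO and 0.281 in CDK18KO.

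Nkd1, the paralog of Nkd2 with the same Dishevelled-binding role, lies at chr8:88521354-88594884. It had 149, 58.6, 412 and 53.9 CPM in DKO 1 to 4, 553, 32.4, 304, 6.28 and 12.05 CPM in CDK18KO 1 to 5, and 271, 298, 329, 343 and 376 CPM in WT 1 to 5. The WT libraries lay within 1.39-fold of each other. The highest CDK18KO library had 88.1 times the Nkd1 of the lowest, and in DKO this ratio was 7.64. DKO 3 and CDK18KO 1 exceeded every WT library, and CDK18KO 3 lay inside the WT range. The means were 168 ± 168 CPM in DKO, 182 ± 242 CPM in CDK18KO and 324 ± 40.8 CPM in WT, and the difference from WT was -0.94 in DKO (SE 1.02, edgeR adjusted p = 0.629), and CDK18KO differed by -0.83 (SE 0.95, adjusted p = 0.681) on the log2 scale. The DKO difference of Nkd1 was -1.89 without DKO 3, and the CDK18KO difference was -1.86 without CDK18KO 1, -0.52 without CDK18KO 4 and -0.53 without CDK18KO 5. The standard deviation of Nkd1 log2 CPM was 1.37 in DKO, 2.79 in CDK18KO and 0.18 in WT, against medians over all tested genes of 0.64, 0.67 and 0.54. The excess of the CDK18KO spread over the WT spread was as large or larger in 0.164% of all tested genes. A gene annotated on the same strand inside Nkd1, Gm45496, held 1782 counts against 10469 for Nkd1 over all libraries.

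Because both Nkd genes are counted in the same library, their ratio does not depend on library scaling. Nkd1 counts were 6.55, 16.1, 21.4 and 27.9 times those of Nkd2 in DKO 1 to 4, 21.1, 11.2, 17.4, 3.00 and 3.12 times in CDK18KO 1 to 5, and 4.19, 2.73, 2.25, 2.61 and 3.83 times in WT 1 to 5, after 0.5 was added to each count. Every DKO ratio was above every WT ratio, and 3 of the 5 CDK18KO ratios were. Some of these ratios rest on few Nkd2 counts: 6 in DKO 2, 3 in DKO 4, and 5, 6 and 8 in CDK18KO 2, 4 and 5. The mean log2 ratio was 3.98 ± 0.91 in DKO and 1.60 ± 0.38 in WT, a difference of 2.38 with an exact two-sided permutation p = 0.0159, or 0.143 after Benjamini-Hochberg adjustment over 9 ratio tests. This is the smallest p that 4 against 5 libraries allow, so a lone difference of this kind could not pass the adjustment, however large. For CDK18KO it was 3.04 ± 1.35, a difference of 1.44 from WT (exact permutation p = 0.0873, adjusted 0.304).

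**Figure D2:**
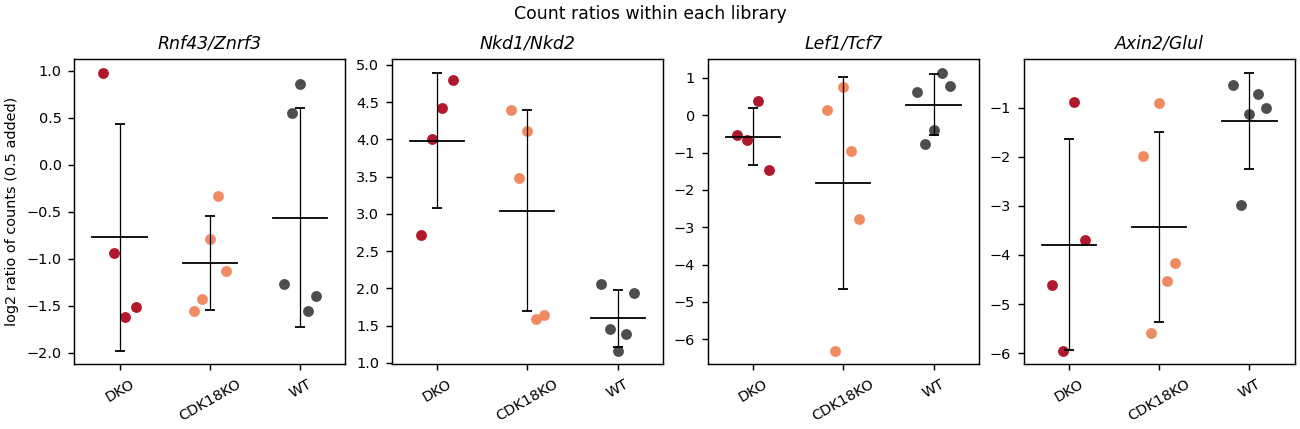
Log2 ratio of the counts of 2 genes within each library (y axis, 0.5 added to each count), for 3 pairs of paralogs and for Axin2 over Glul, in DKO (n = 4), CDK18KO (n = 5) and WT (n = 5). Points are libraries, lines are means and bars are SD; all 4 DKO points of Nkd1/Nkd2 lie above the 5 WT points.

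Tcf7 and Lef1, the members that encode DNA-binding partners of β-catenin, were at or near the WT level in 3 knockout tumours and low in the other 6. Tcf7 (chr11:52252371-52283014) had 36.9, 34.4, 66.7 and 20.6 CPM in DKO 1 to 4, 109, 20.7, 69.6, 4.62 and 20.4 CPM in CDK18KO 1 to 5, and 87.5, 79.5, 91.4, 77.5 and 113 CPM in WT 1 to 5. All DKO libraries were below all WT libraries, and of the CDK18KO libraries only CDK18KO 1 reached the WT range. The log2 difference of Tcf7 from WT was -1.17 in DKO (SE 0.65, edgeR adjusted p = 0.338), and CDK18KO differed by -0.99 (SE 0.60, adjusted p = 0.416), or by -1.63 without CDK18KO 1.

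Lef1 (chr3:131110471-131224356), the second of these factors, had 25.4, 21.4, 87.1 and 7.22 CPM in DKO 1 to 4, 121, 0, 119, 2.31 and 2.78 CPM in CDK18KO 1 to 5, and 136, 46.6, 69.6, 170.2 and 195 CPM in WT 1 to 5. CDK18KO 2 had 0 Lef1 counts, which allows up to 1.60 CPM at 3 counts, while CDK18KO 1 and CDK18KO 3 lay inside the WT range. The log2 difference from WT was -1.79 in DKO (SE 1.23, edgeR adjusted p = 0.442), and CDK18KO differed by -1.32 (SE 1.12, adjusted p = 0.572). Without DKO 3 the DKO difference of Lef1 was -2.75. Its standard deviation of log2 CPM in CDK18KO was 3.40, a value reached or exceeded by 0.0929% of tested genes, against 0.88 in WT. The Lef1 to Tcf7 count ratio averaged -0.57 ± 0.76 on the log2 scale in DKO, -1.82 ± 2.84 in CDK18KO and 0.28 ± 0.82 in WT (exact permutation adjusted p = 0.304 for either knockout group against WT). The CDK18KO mean leans on CDK18KO 2, whose log2 ratio of -6.30 rests on the 0.5 added to 0 counts: the difference from WT was -2.10 with that library and -0.98 without it.

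Both factors are also expressed by T cells. The 12 T cell markers summed to 9.06 to 51.7 CPM in DKO, 7.45 to 11.6 CPM in CDK18KO and 4.95 to 14.7 CPM in WT, with 1 to 5, 4 to 7 and 5 to 9 of the 12 at 0 counts in a library. T cell markers were thus highest in DKO 4 and DKO 2, where Tcf7 and Lef1 were low, and their part in the levels was not tested.

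Axin2 (chr11:108920349-108950783), a scaffold of the destruction complex that Wnt signalling induces, had 60.0, 76.1, 227 and 141 CPM in DKO 1 to 4, 235, 110.1, 194, 73.7 and 20.4 CPM in CDK18KO 1 to 5, and 161, 102, 101, 248 and 324 CPM in WT 1 to 5. DKO 1, DKO 2, CDK18KO 4 and CDK18KO 5 fell short of the lowest WT library, and no knockout library exceeded the highest. The means were 126 ± 75.8 CPM in DKO, 126 ± 87.3 CPM in CDK18KO and 187 ± 97.3 CPM in WT. On the log2 scale Axin2 differed from WT by -0.57 in DKO (SE 0.60, edgeR adjusted p = 0.622), and CDK18KO differed by -0.56 (SE 0.56, adjusted p = 0.638), with 95% intervals of -1.75 to 0.61 in DKO and -1.66 to 0.54 in CDK18KO. The DKO difference of Axin2 was -1.02 without DKO 3, -0.33 without DKO 1, -0.37 without DKO 2 and -0.29 without WT 5. The CDK18KO difference was -0.91 without CDK18KO 1, -0.29 without CDK18KO 5 and -0.27 without WT 5.

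Sp5 (chr2:70474923-70477729) encodes a zinc-finger repressor that dampens Wnt target genes. It had 69.7, 51.8, 153 and 23.9 CPM in DKO 1 to 4, 293, 54.2, 109, 13.9 and 3.24 CPM in CDK18KO 1 to 5, and 57.1, 174, 182, 196 and 269 CPM in WT 1 to 5. The groups overlapped because WT 1 was low and CDK18KO 1 was the highest of all 14 libraries. The log2 difference from WT was -1.23 in DKO (SE 0.91, edgeR adjusted p = 0.480), and CDK18KO differed by -0.89 (SE 0.84, adjusted p = 0.615). The DKO difference of Sp5 was -1.87 without DKO 3, and the CDK18KO difference was -1.96 without CDK18KO 1 and -0.58 without CDK18KO 5.

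Notum (chr11:120653788-120661175) encodes a secreted esterase that removes the lipid from Wnt ligands. It had 73.7, 84.0, 180.3 and 30.6 CPM in DKO 1 to 4, 155, 92.0, 106, 23.5 and 15.3 CPM in CDK18KO 1 to 5, and 106, 94.7, 134, 99.9 and 235 CPM in WT 1 to 5. CDK18KO 1, CDK18KO 3 and DKO 3 lay inside the WT range, and the other 6 knockout libraries lay below it. Notum differed from WT by -0.54 in DKO (SE 0.62, edgeR adjusted p = 0.653), and CDK18KO differed by -0.77 (SE 0.58, adjusted p = 0.524) on the log2 scale. The DKO difference of Notum was -1.11 without DKO 3, -0.25 without DKO 4 and -0.26 without WT 5. The CDK18KO difference was -1.18 without CDK18KO 1, -0.51 without CDK18KO 5 and -0.49 without WT 5.

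At the membrane, the members stood closer to WT. Rnf43 (chr11:87662722-87735539) and Znrf3 (chr11:5276324-5444847) encode related ubiquitin ligases that clear Frizzled receptors from the cell surface. Rnf43 ran from 39.5 to 82.9 CPM in DKO, from 33.0 to 76.7 CPM in CDK18KO and from 43.8 to 93.7 CPM in WT, with log2 differences from WT of -0.19 in DKO (SE 0.33, edgeR adjusted p = 0.770), and CDK18KO differed by -0.51 (SE 0.31, adjusted p = 0.420). With single libraries left out, the DKO difference of Rnf43 ran from -0.38 (without DKO 1) to -0.05 (without DKO 4). Znrf3 ran from 42.0 to 197 CPM in DKO, from 56.5 to 151 CPM in CDK18KO and from 51.5 to 175 CPM in WT, with log2 differences of 0.08 (95% interval -0.82 to 0.97) and -0.09 (-0.94 to 0.75). The direction of Znrf3 against WT turned in 4 of the 22 alternatives for DKO, among them upper-quartile scaling (-0.02), and in 2 of the 22 for CDK18KO (0.15 without WT 5). The Rnf43 to Znrf3 count ratio was above 1 in DKO 1 (1.97), WT 2 (1.46) and WT 3 (1.82), and between 0.327 and 0.796 in the other 11 libraries.

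Lgr5 (chr10:115450311-115587780) encodes an R-spondin receptor that marks hepatocytes next to the central vein. It had 29.7, 58.0, 87.4 and 65.6 CPM in DKO 1 to 4, 85.1, 68.6, 9.63, 30.1 and 14.4 CPM in CDK18KO 1 to 5, and 25.2, 55.4, 50.9, 32.1 and 63.3 CPM in WT 1 to 5. CDK18KO 3 had the lowest Lgr5 of all libraries although its Nkd1, Axin2 and Lef1 lay within the WT range, and CDK18KO 2 was above every WT library although its Lef1 had no counts. Lgr5 differed from WT by 0.41 in DKO (SE 0.56, edgeR adjusted p = 0.708), and CDK18KO differed by -0.13 (SE 0.53, adjusted p = 0.924) on the log2 scale, the second with the opposite sign without CDK18KO 3 (0.13) or CDK18KO 5 (0.09). The DKO difference of Lgr5 was 0.13 without DKO 3, 0.64 without DKO 1 and 0.21 without WT 1.

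**Figure D3:**
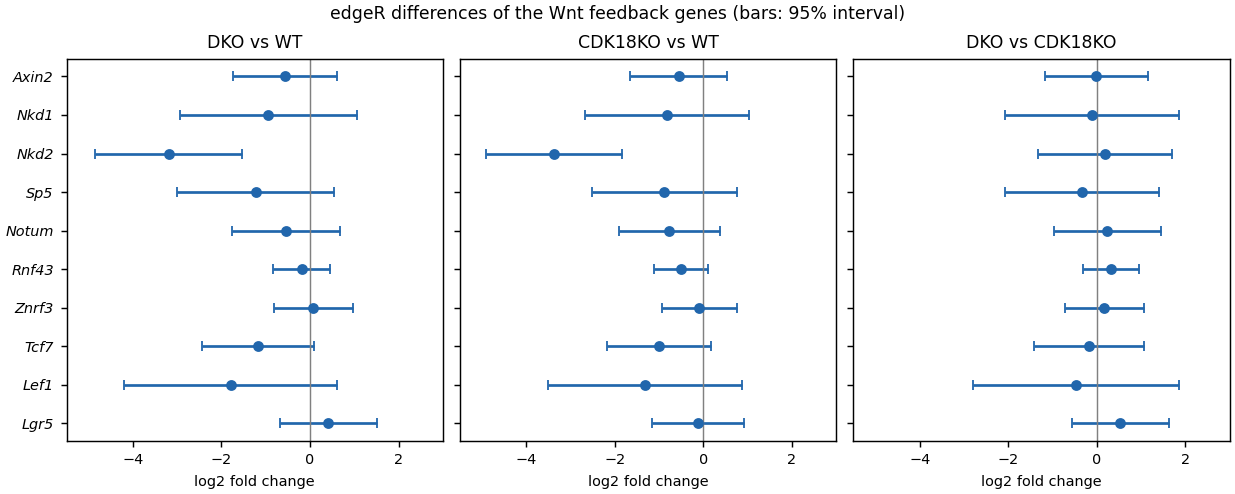
Log2 fold change (x axis) of each Wnt feedback gene (rows) in DKO against WT, CDK18KO against WT and DKO against CDK18KO, from the edgeR fit of all 14 libraries; bars are 95% intervals. Only the bars of Nkd2 against WT stay clear of 0, at -3.19 and -3.38, and neither passed after adjustment over all genes.

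Counted together, 0 of the 10 members passed the edgeR test in DKO against WT, where 0.00714% of the 13997 genes did, and 0 of 10 passed in CDK18KO against WT, with the same share of all genes at 0.00714%. At an unadjusted p under 0.05 the count was 1 of 10 in each (Nkd2, lower), against 5.22% of genes lower in DKO and 5.31% lower in CDK18KO. DESeq2 called 1 of 10 in each, against 7.38% of genes in DKO and 6.12% in CDK18KO. All 10 members passed the filter on low counts. In DKO 8 of the 10 were below WT, with a median log2 fold change of -0.75, and 52.1% of all tested genes were below WT, with a median of -0.04. In CDK18KO all 10 were below WT, with a median of -0.80, and of all tested genes 50.6% were, with a median of -0.01. The direction was not particular to the members: of 10 further β-catenin targets outside the feedback set, 8 were below WT in DKO (median -0.43). In CDK18KO 10 of these 10 were (median -1.05). These 2 comparisons share the WT libraries. Of the 7 cholangiocyte markers tested, 7 were also below WT in CDK18KO, with a median of -3.82 and 5 at an unadjusted p under 0.05, whereas in DKO 2 of 7 were below WT and the median was 0.41. The 8 listed cholangiocyte markers summed to 146 to 552 CPM in DKO, 22.8 to 48.2 CPM in 4 CDK18KO libraries with 301 CPM in CDK18KO 1, and 165 to 426 CPM in WT. Their part in the levels of the members was not tested. Over the alternatives the number below WT was 8 or 9 in DKO and 9 or 10 in CDK18KO, and the median was -1.33 without DKO 3, -1.40 without CDK18KO 1, -0.52 without CDK18KO 5 and -0.53 without CDK18KO 4.

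Between DKO and CDK18KO no member passed a test. The edgeR test called 0 of the 10 members and 0% of all genes in this comparison, 0 of the 10 and 5.8% of all genes had an unadjusted p under 0.05, and DESeq2 called 0 of the 10 and 0.6% of all genes. Of the members 5 were higher and 5 lower in DKO, with a median log2 difference of 0.08, and 51.8% of all tested genes were lower. The 95% intervals were wide, from -0.32 to 0.95 for Rnf43 and from -2.79 to 1.85 for Lef1. Without CDK18KO 1 all 10 were higher in DKO (median 0.55), and without DKO 3 only 2 of 10 were (median -0.41).

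**Figure D4:**
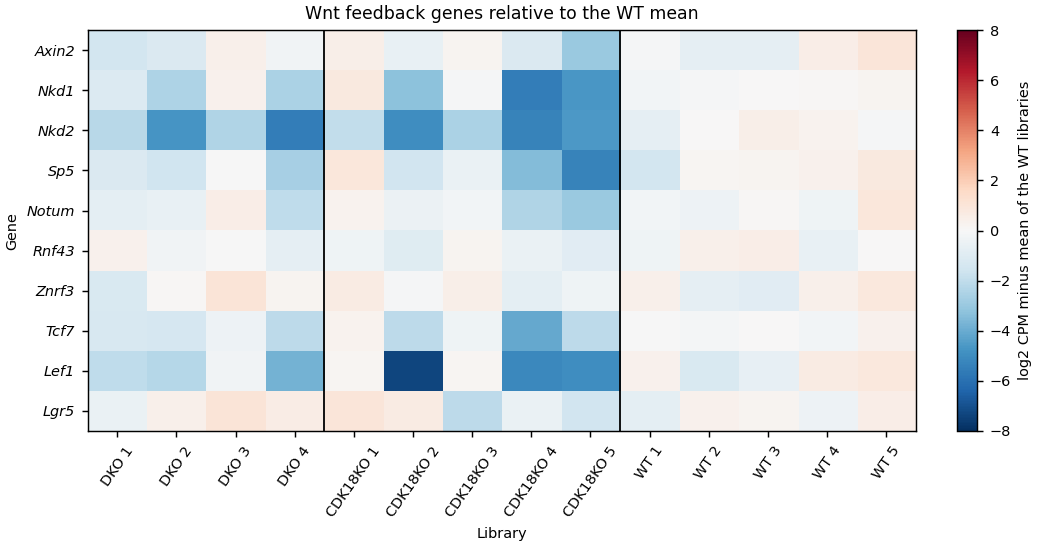
Log2 CPM of each Wnt feedback gene (rows) in each library (columns) minus the mean of the 5 WT libraries, in colour from -8 (blue) to 8 (red). Nkd2 is blue in all 9 knockout columns, while most other members are blue in 6 of them and near white or red in DKO 3, CDK18KO 1 and CDK18KO 3.

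Set against the WT range library by library, the knockout tumours differed widely from each other. In DKO 1, DKO 2, DKO 4, CDK18KO 2 and CDK18KO 4, 7 of the 10 members were below the lowest WT library, and in CDK18KO 5 9 of the 10 were. In DKO 3 only Nkd2 and Tcf7 were, in CDK18KO 1 only Nkd2, and in CDK18KO 3 Nkd2, Tcf7 and Lgr5. Of all tested genes, 26.3% to 31.9% were below the lowest WT library in the first 6 and 11.3% to 13.2% in the other 3. Nkd1, Nkd2, Tcf7 and Lef1 were below the WT range in all of these 6 libraries, together with Notum, whereas Rnf43, Znrf3 and Lgr5 were below it in 3, 1 and 1 of them. Hepatocyte markers, whose part in the difference was not tested, summed to 4772 to 18535 CPM in the 6 libraries and to 1043 to 1488 CPM in the other 3.

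The β-catenin gene itself varied less within either knockout group than each of the 10 members did. Ctnnb1, which may include reads of the injected plasmid, had 643, 581, 828 and 1108 CPM in DKO 1 to 4, 842, 506, 640.4, 501 and 555 CPM in CDK18KO 1 to 5, and 781, 612, 858, 834 and 1282 CPM in WT 1 to 5. The groups overlapped, and the log2 difference from WT was -0.15 in DKO (SE 0.27, edgeR adjusted p = 0.785), and CDK18KO differed by -0.52 (SE 0.25, adjusted p = 0.311). Its standard deviation of log2 CPM was 0.42 in DKO, 0.31 in CDK18KO and 0.38 in WT. The member closest to it, Rnf43, had 0.45 in DKO, 0.48 in CDK18KO and 0.46 in WT, and within WT Nkd1 (0.18) and Tcf7 (0.21) varied less than Ctnnb1.

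The perivenous genes, hepatocyte targets of β-catenin, stood on the other side of WT. Of 10 such genes 10 were above WT in either knockout group, against 47.9% of all tested genes in DKO and 49.4% in CDK18KO, and 0 passed the edgeR test. Their median log2 fold change was 3.34 in DKO and 2.63 in CDK18KO, where that of Tbx3 was only 0.15 (SE 0.78). The 12 hepatocyte markers stood about as far above WT, with 12 of 12 higher and a median of 3.24 in DKO, and 11 of 12 higher and a median of 2.45 in CDK18KO. Glul, the glutamine synthetase gene, had 1473, 4703, 421 and 1832 CPM in DKO 1 to 4, 929.7, 5340.2, 361, 1697 and 371 CPM in CDK18KO 1 to 5, and 234, 803, 220.05, 409 and 649.6 CPM in WT 1 to 5. The log2 ratio of Axin2 to Glul counts, a pair chosen after the values were seen, averaged -3.79 ± 2.14 in DKO, -3.43 ± 1.93 in CDK18KO and -1.27 ± 0.98 in WT. The difference from WT was -2.51 in DKO (exact permutation p = 0.0635, adjusted over 3 tests 0.107) and -2.16 in CDK18KO (exact permutation p = 0.0714, adjusted 0.107), neither past 0.05. Hepatocyte markers were highest in DKO 1, DKO 2 and CDK18KO 2, at 10103 to 18535 CPM, where Glul was 1473, 4703 and 5340.2 CPM. These markers summed to 6417 CPM in CDK18KO 5 and 1043 CPM in CDK18KO 3, where Glul was 371 and 361 CPM. The part of hepatocyte markers in Glul and in the ratio was not tested.

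**Figure D5:**
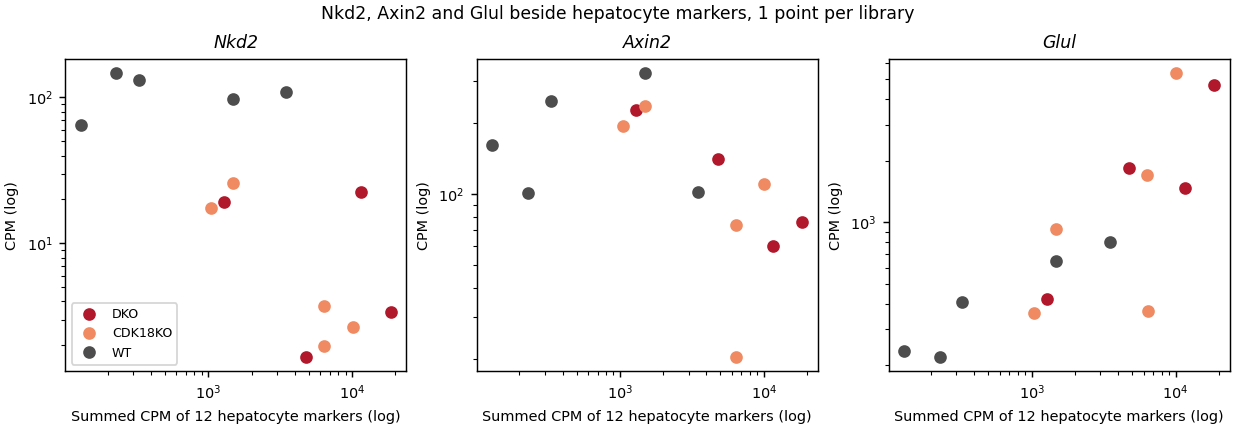
CPM of Nkd2, Axin2 and Glul (y axes, log scale) against the summed CPM of 12 hepatocyte markers (x axis, log scale), 1 point per library in DKO (n = 4), CDK18KO (n = 5) and WT (n = 5). Nkd2 was 1.67 to 22.6 CPM in DKO, 1.98 to 26.1 CPM in CDK18KO and 64.5 to 146 CPM in WT. The marker sums were 1287 to 18535, 1043 to 10103 and 130 to 3491 CPM in these groups, and their part in the Nkd2 levels was not tested.

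Upstream and beside the feedback genes, no gene of 5 other Wnt lists passed the edgeR test in any comparison. These lists were 21 ligand and secretion genes, 21 R-spondins and receptors, 16 antagonists, 17 genes of the destruction complex and Dishevelled, and 14 nuclear partners, of which 9, 18, 11, 16 and 13 had enough counts. In CDK18KO against WT, 3, 2, 4, 0 and 0 of them had an unadjusted p under 0.05, every one lower, where 5.31% of all tested genes were, and the medians were -1.33, -0.69, -1.45, -0.14 and -0.23. The secreted antagonist genes Sfrp1 (log2 fold change -3.92, SE 1.15) and Sfrp2 (-3.19, SE 1.23), the ligand gene Wnt7b (-2.93, SE 0.98), the receptor genes Fzd8 (-2.19, SE 0.70) and Fzd9 (-2.33, SE 0.90) and the Wnt acyltransferase gene Porcn (-1.33, SE 0.48) had the smallest p of their lists, with edgeR adjusted p of 0.162 to 0.215. Few counts limit these differences: summed over the CDK18KO libraries, Sfrp1 had 14, Wnt7b 13 and Fzd8 16. In WT the highest library held 196 of the 235 Sfrp1 counts. In the last of the 5 lists and in that of the destruction complex, the smallest p belonged to Cby1, a β-catenin antagonist (0.93, SE 0.47), Tle3, a co-repressor (-0.69, SE 0.36), Csnk1e, a casein kinase (-0.90, SE 0.48), and Ctnnb1 given above. Fibroblast markers summed to 460 to 1205 CPM in DKO, 45.9 to 893 CPM in CDK18KO and 424 to 1251 CPM in WT, and their part in the Sfrp1 and Sfrp2 levels was not tested.

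In DKO against WT, 0, 1, 1, 2 and 0 members of these lists had an unadjusted p under 0.05 (Lgr4 higher, where 13.7% of all tested genes were, and the other 3 lower, where 5.22% were), and the medians were -0.40, -0.34, -1.17, -0.23 and -0.34. Lgr4, an R-spondin receptor related to Lgr5, was at 132 ± 31.1 CPM in DKO and 56.3 ± 14.7 CPM in WT, without overlap and with DKO higher, as in 3.04% of all tested genes (log2 fold change 1.23, SE 0.31, edgeR adjusted p = 0.146), and stood 0.68 above CDK18KO (SE 0.31, adjusted p = 0.839). The Wnt antagonist Sostdc1 (-2.97, SE 1.34), the scaffold Axin1 (-0.77, SE 0.34) and Amer1, a partner of the complex (-0.90, SE 0.42), had edgeR adjusted p of 0.235 to 0.263. Ror2, a receptor for Wnt ligands (-2.52, SE 1.24), Porcn (-0.997, SE 0.51), Wnt7b (-1.50, SE 0.98), Sfrp4 (1.959, SE 0.98), Tle3 (-0.74, SE 0.39) and Pygo1, a nuclear co-activator (-1.84, SE 0.99), were the others with the smallest p, at adjusted p of 0.284 to 0.421.

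Between DKO and CDK18KO, Fzd8 (2.30, SE 0.73, edgeR adjusted p = 0.507) and Sfrp2 (3.502, SE 1.28, adjusted p = 0.652) stood higher in DKO and Cby1 lower (-1.20, SE 0.51, adjusted p = 0.787). None passed. Wnt10a (2.75, SE 1.40), Wnt6 (1.84, SE 1.03), Sfrp4 (1.68, SE 0.98), Amer1 (-0.82, SE 0.42), Fbxw11 (0.48, SE 0.28) and Chd8 (-0.48, SE 0.37) had adjusted p of 0.910 to 0.993. The highest DKO library held 66 of the 69 Wnt10a counts of DKO, and CDK18KO had 11 in all. Sfrp4 had 47 counts in DKO and 17 in CDK18KO, of which the highest library held 14. Among 10 further β-catenin targets outside the feedback set, the receptor gene Ephb2 stood at -1.21 against WT in DKO (SE 1.07, edgeR adjusted p = 0.555) and -2.52 against WT in CDK18KO (adjusted p = 0.246, SE 1.05), and the cyclin gene Ccnd1 by -0.87 (SE 0.32, adjusted p = 0.171) in DKO. The growth factor gene Bmp4 differed by -1.68 (SE 0.93, adjusted p = 0.373) in CDK18KO against WT. Sox9 (1.81, SE 0.88) and Ccnd1 (-0.66, SE 0.32) had adjusted p of 0.893 and 0.900 between DKO and CDK18KO. Of the perivenous genes, Oat (3.03, SE 0.89) and Cyp2e1 (4.31, SE 1.36) had the smallest p in DKO against WT, with adjusted p = 0.146 each, and Cyp2e1 (3.46, SE 1.28, adjusted p = 0.204) and Glul (1.91, SE 0.77, adjusted p = 0.230) in CDK18KO against WT. Between DKO and CDK18KO these were Oat (1.49, SE 0.85, adjusted p = 0.948) and Cyp1a2 (1.68, SE 1.324, adjusted p = 0.993).

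Across the 14 libraries, the genes whose rank order was most like that of Axin2 were Smad7, an inhibitor of TGF-β signalling (Spearman rho 0.98), Msi2, an RNA-binding protein (0.97), Cdyl, a chromatin factor (0.96), Apc, a scaffold of the destruction complex (0.96), and Dip2c (0.96), out of 13996 genes. These rhos describe 14 libraries that differ in genotype, in depth and in their side of the split on the first principal component. The part of these differences in the rhos was not tested. Among the members, Znrf3 was the most like Axin2 (rho 0.87, place 150) and was followed by Lef1 (0.78), Notum (0.78), Nkd1 (0.77), Sp5 (0.71) and Tcf7 (0.64). Lgr5 (0.41), Nkd2 (0.37) and Rnf43 (0.0022, place 7348) were less like it. Smad7 had 14.0, 29.9, 102.6 and 52.2 CPM in DKO 1 to 4, 109.6, 39.4, 70.5, 13.9 and 12.5 CPM in CDK18KO 1 to 5, and 64.9, 40.3, 44.0, 117 and 191 CPM in WT 1 to 5, so its highest library in each group was also that of Axin2.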

How the data were processed

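Poly(A)-primed, strand-keeping 3′ libraries with a 6-base molecular identifier were sequenced as single reads, per the labels' protocols. The authors deposited 1 table of raw counts, with 77981 gene symbols as rows and the 14 libraries as columns. HTSeq 1.99.2, STAR 2.7.11a, UMI-tools 1.1.2, DESeq2 1.32.0 and FastQC appear in the submitters' processing notes, which list mm10 and GRCh38 as builds. The annotation, the strand setting and any collapsing of identifiers are not stated there, and limits from counts cover counting error only.

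The main test was edgeR 4.0.16 (R 4.3.3), a two-sided quasi-likelihood F test with TMM factors and filterByExpr by group (minimum count 10; 13997 genes kept), fitted to the 14 libraries together, with p-values adjusted by Benjamini-Hochberg over the genes kept. CPM of all genes uses the same factors. The SE is the log2 fold change divided by the square root of F, and 95% intervals are normal. The pipeline was tested on simulated data. DESeq2 1.42.0 was an alternative. Ratios used exact permutation tests. Positions are from GENCODE M21 (GRCm38). The members, gene lists and alternatives were chosen with earlier results of these data known. Named are all members, the 2 genes with the smallest p of each further list in each comparison, and the 5 genes most like Axin2 by Spearman rho. Spearman rho over the 14 libraries serves only to describe likeness to Axin2; correlation tests with Axin2 are not given, since the libraries fell into 2 sets on the first principal component. Columns of per-sample values left unused numbered 0.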

Additional observations from a re-analysis of the deposited data

Results flagged for a closer look

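Of 30 sets of values (10 members in 3 groups), 1 had a library far from the rest, and chance flags about 1 in 20. Sp5 in WT 1, at 57.1 CPM, was separated from the next WT library by 0.717 of the whole WT range on the log2 scale, where 0.71 is the limit for 5 libraries. The other 4 WT libraries had 174 to 269 CPM of Sp5. Without WT 1 the log2 fold change of Sp5 stood at -1.48 in DKO and -1.12 in CDK18KO against WT, neither past the threshold.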

How the results depend on the processing

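The count of Wnt feedback genes called in DKO against WT was 1 under DESeq2, without the filter on low counts and with the replicate number as a block, and 0 in the other alternatives, 0 to 0 with each library left out. In CDK18KO against WT it was 1 under those 3, and 0 to 1 with each library left out. The gene was Nkd2 each time. Between DKO and CDK18KO it was 0 throughout. Over all genes, calls in DKO against WT numbered 1033 under DESeq2, 252 without the filter, 438 with the replicate block, 0 with only the 2 groups fitted, 0 without CDK18KO 1, WT 3 and WT 5 (high Y-linked counts), and 0 to 1 with each library left out. In CDK18KO against WT these were 856, 173, 297, 0, 0 and 0 to 74 (74 without CDK18KO 1), and between DKO and CDK18KO 84 under DESeq2, 42 without the filter and 0 to 2 leave-one-out. The cause was not tested. The sources used here do not say whether replicate numbers pair the libraries. In deviations from the group means, 6 of 13 same-numbered pairs correlated above 0.1 (-0.23 to 0.65). The pairs numbered 2 correlated at 0.58, 0.45 and 0.30, and 3 of 14 libraries correlated best with their own number. Of 660 repeated member differences 614 kept direction and side, 7 (all Nkd2) became calls and 39 changed sign. No member was called in the main fit, so keeping its side meant staying uncalled. The 660 also include fits that left out a library of neither group compared, so the 614 says little of stability. Against WT, Znrf3 ran from -0.34 to 0.36 in DKO with each library left out (-0.0199 with upper-quartile factors) and from -0.28 to 0.15 in CDK18KO, and Lgr5 from -0.57 to 0.13 in CDK18KO. Between DKO and CDK18KO the leave-one-out ranges were -0.48 to 0.34 for Axin2, -1.07 to 0.92 for Nkd1, -0.34 to 0.86 for Nkd2, -0.98 to 0.73 for Sp5, -0.34 to 0.64 for Notum, -0.27 to 0.44 for Znrf3, -0.57 to 0.46 for Tcf7, -1.45 to 0.19 for Lef1 and -1.32 to 0.37 for the Axin2 to Glul log2 ratio. Leaving out the 3 Y-rich libraries, these differences were 0.35 for Axin2, 0.94 for Nkd1, 0.74 for Sp5, 0.47 for Tcf7, 0.20 for Lef1 and 0.01 (0.00853) for the ratio. The replicate block gave 0.41 for Nkd1, 0.13 for Tcf7 and 0.40 for Lef1, and the stricter filter 0.0144 for Axin2. The paralog ratio tests past an adjusted p of 0.05 numbered 0 under the 16 alternatives, which says nothing of stability, since a lone difference at the smallest exact permutation p (0.0159 for 4 against 5 libraries) cannot pass adjustment over 9 tests. The correlation tests with Axin2 and their alternatives were not run, and the rhos that describe likeness to Axin2 were computed under 1 setting. Few counts limit Nkd2 and Lef1 in the knockout libraries, and also genes of the other Wnt lists such as Sfrp1, Wnt7b, Fzd8, Wnt10a and Sfrp4.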
